A study of Arabidopsis thaliana with 12 samples.

Results

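The 8 genes described here encode the soluble gibberellin receptors of Arabidopsis thaliana, GID1A, GID1B and GID1C, and the DELLA proteins on which those receptors act, RGA, GAI, RGL1, RGL2 and RGL3. Their locus codes are AT3G05120, AT3G63010 and AT5G27320 for the receptors in that order, and AT2G01570, AT1G14920, AT1G66350, AT3G03450 and AT5G17490 for the DELLA proteins. They were taken by these codes from the 36917 genes of a count table, and all 8 were found there. Their transcripts were followed across 12 RNA sequencing libraries, 3 in each of 4 groups. The groups were made to compare plants lacking FRUITFULL (FUL), a MADS-domain transcription factor of fruit valves and inflorescence meristems, with wild type. In the Landsberg erecta (Ler) ecotype, wild type and the mutant ful-1 gave pistils and young siliques, at floral stages 12 to 16. In the Columbia (Col-0) ecotype, wild type and mutant gave dissected inflorescence meristems whose oldest buds were at stages 3 to 4. The mutant there was ful-7, the T-DNA line SALK_033647. Each sample pooled about 20 organs from untreated plants, and each tissue was represented by 1 mutant allele in 1 ecotype, so tissue, ecotype and allele cannot be told apart between tissues.

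Gibberellins are growth hormones of plants. A GID1 receptor that holds a gibberellin binds the amino-terminal DELLA domain of a DELLA protein, and the F-box protein SLY1 then marks the DELLA protein for degradation. DELLA proteins belong to the GRAS family of nuclear regulators and restrain growth by binding transcription factors, and their loss after fertilisation is known to go with growth of the fruit.

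The stretches below show what unites and separates the members, the receptor-binding motif of the DELLA proteins and a catalytic-fold motif of the receptors. Each is 51 bases of coding sequence, read 5′ to 3′ along the transcript from RefSeq, build TAIR10.1. Capitals mark the 5 codons of the motif that gave the DELLA proteins their name, or the 3 codons of the HGG motif (histidine, glycine, glycine) that the receptors share with hormone-sensitive lipases.
RGA, chr2:257165-257215, minus strand: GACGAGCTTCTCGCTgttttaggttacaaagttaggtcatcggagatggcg
GAI, chr1:5149495-5149545, plus strand: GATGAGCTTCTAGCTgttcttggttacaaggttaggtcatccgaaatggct
RGL1, chr1:24748420-24748470, plus strand: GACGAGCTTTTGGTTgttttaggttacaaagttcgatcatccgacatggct
RGL2, chr3:821100-821150, minus strand: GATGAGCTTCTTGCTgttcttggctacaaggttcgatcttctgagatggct
RGL3, chr5:5765738-5765788, minus strand: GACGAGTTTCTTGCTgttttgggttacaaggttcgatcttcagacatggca
GID1A, chr3:1431565-1431615, plus strand: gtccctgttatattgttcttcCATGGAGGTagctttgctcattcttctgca
GID1B, chr3:23290237-23290287, plus strand: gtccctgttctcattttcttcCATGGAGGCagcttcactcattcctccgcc
GID1C, chr5:9630021-9630071, plus strand: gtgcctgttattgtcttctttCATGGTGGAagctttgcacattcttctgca

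Over these 17 codons GAI and RGL2 encode the same residues as RGA, although 8 and 11 of the 51 bases differ. RGL1 and RGL3 each encode another residue at 2 of the 17 codons, 1 of them inside the motif. Over the aligned coding sequences, identity was highest between RGA and GAI among the DELLA genes, at 80.5%, and between GID1A and GID1C among the receptors, at 83.4%. GID1B shared 69.6% with GID1A and 69.3% with GID1C.

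The 5 DELLA genes are annotated as single exonic blocks, RGA on chromosome 2 from 255247 to 257568, GAI and RGL1 on chromosome 1 from 5148982 to 5151415 and from 24748105 to 24750186, RGL2 on chromosome 3 from 819337 to 821652, and RGL3 on chromosome 5 from 5763989 to 5766246. The receptors have 2 exonic blocks each, GID1A and GID1B on chromosome 3 from 1430363 to 1432844 and from 23289243 to 23291486, and GID1C on chromosome 5 from 9628990 to 9631291. None of the 8 overlapped an exon of another gene. The longest run of identical bases between transcripts of 2 members was 35 (GID1A and GID1C) and 30 between RGA and GAI, and no member had a hit of 100 bases at 95% identity in another gene, so sharing of reads among them was limited to short stretches. The CArG box, the site that MADS-domain proteins are known to bind (CC, 6 bases of A or T, GG; the same on both strands), was looked for in the 250 bases upstream of each annotated start. It was found in 0 of the 8 members and in 692 of 27443 genes (2.52%).

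Total counts per library ran from 13191949 to 83606724. FUL fell in both mutants as labelled. In CPM (counts relative to library size, the usual per-1e6 unit, scaled by TMM over the 12 libraries), it was at 95.3, 107 and 153 in Col-0 meristems and 2.44, 1.71 and 3.29 in ful-7. It was at 104, 107 and 96.2 in Ler pistils and 8.87, 9.76 and 2.58 in ful-1. Ful-1 pistil library 3, the smallest library, stood apart. Its Spearman rho with the other 5 pistil libraries was 0.823 to 0.837 against 0.972 to 0.994 among those 5, and 2.04% of its counts were plastid transcripts against 0.118% to 0.393%. The summed level of 4 leaf and guard cell markers was 32250 CPM in it against 6336 to 11400 CPM in the other pistil libraries. Of these, LHCB1.3 was at 27280 CPM against 4031 to 6784 and RBCS1A at 4967 CPM against 2300.0 to 4600.0. The guard cell genes FAMA and MYB60 were not high in it, at 1.55 and 3.09 CPM, where the other ful-1 libraries had 1.43 and 1.48 CPM of FAMA and 3.92 and 4.54 CPM of MYB60. Markers of other organs departed too, though some, such as STK and STM, stayed within the range of the other pistil libraries. The petal genes AP3 and PI were at 7.42 and 22.5 CPM, against 21.7 to 45.9 and 4.74 to 13.25. INO was at 97.6 CPM against 20.05 to 44.99, and TFL1 at 6.60 CPM against 0.821 to 1.41. Results in pistils are therefore given with and without it, and the part of its makeup in them was not tested.

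The 7 carpel, valve margin and ovule markers summed to 27.6 to 64.9 CPM in meristem libraries and 357 to 752 CPM in pistil libraries. The ovule genes STK and INO stayed below 1 CPM in every meristem library. Another gene of that list, CRC, was mostly higher in meristems, at 7.88 to 30.01 CPM against 3.10 to 9.86 CPM in pistils, and AG was at 8.61 to 21.3 CPM in meristems. Among 6 meristem markers, WUS, CLV3 and LFY stayed below 1 CPM in every pistil library. CLV3 was also below 1 CPM in all 6 meristem libraries, and WUS was only at 0.913 to 1.29 CPM there. The other markers of that list were detected in pistils at lower levels than in meristems. STM was at 20.25 to 27.4 CPM in pistils against 98.3 to 144 CPM in meristems. AP1 was at 0.959 to 3.92 CPM against 99.6 to 111.5 CPM, and TFL1 at 0.821 to 6.60 CPM against 10.3 to 25.4 CPM. The 7 stamen, tapetum and pollen markers were split. VGD1, a pectin methylesterase of pollen, was at 275 to 847 CPM in pistils against 2.36 to 13.6 CPM in meristems. PPME1 was at 9.28 to 76.4 CPM in pistils against 0.207 to 1.09 CPM. LAT52 stayed below 1 CPM in every library of both tissues, and MS1 and DYT1 in every pistil library. AMS was higher in meristems, at 4.45 to 8.92 CPM against 0.0967 to 3.71 CPM in pistils. TPD1 overlapped, at 3.03 to 4.40 CPM in meristems and 1.92 to 3.65 CPM in pistils. In pooled organs of this kind, fewer cells of a type and less RNA per cell cannot be told apart.

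The clearest feature of the 8 genes was the tissue pattern of the DELLA family. Differences between the wild types were common, with 60.9% of genes tested and 4 of the 8 members called (edgeR adjusted p under 0.05). RGL1 and RGL2, DELLA proteins with known parts in flowers and, for RGL2, in seed germination, were several-fold higher in wild-type pistils than in wild-type meristems, while RGA and GAI, the main repressors of stem growth, differed between them by less than the spread between libraries. RGL3, a DELLA protein linked to jasmonate responses, and the receptor GID1B, which binds gibberellins with the highest affinity of the receptors in vitro, were lower in pistils.

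RGL1 was at 14.7, 12.0 and 16.4 CPM in Col-0 meristems and at 117, 129 and 118 CPM in Ler pistils. RGL2 was at 7.82, 7.12 and 5.84 CPM in Col-0 meristems and at 66.6, 76.2 and 67.8 CPM in Ler pistils. For both genes every pistil library lay far above every meristem library. GID1B was at 17.2, 18.7 and 16.9 CPM in Col-0 meristems and at 5.06, 5.88 and 6.88 CPM in Ler pistils. RGL3 was at 8.61, 13.6 and 11.01 CPM in meristems and at 7.19, 6.55 and 6.88 CPM in pistils. The groups did not overlap for these genes either, though for RGL3 the lowest meristem library came close to the highest pistil library. The share of all genes that lay apart between the tissues was not counted.

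RGA was at 124, 112 and 129 CPM in Col-0 meristems and at 127, 122.9 and 141 CPM in Ler pistils. GAI was at 49.6, 41.5 and 50.2 CPM in meristems and at 47.2, 45.6 and 52.8 CPM in pistils. GID1A, the receptor with the largest known part in fruit growth, was at 32.4, 32.5 and 38.5 CPM in meristems and at 35.4, 28.5 and 40.0 CPM in pistils. The tissues overlapped for each of these, and also for GID1C, at 14.6, 19.6 and 16.97 CPM in meristems and 17.02, 12.5 and 18.9 CPM in pistils.

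**Figure D1:**
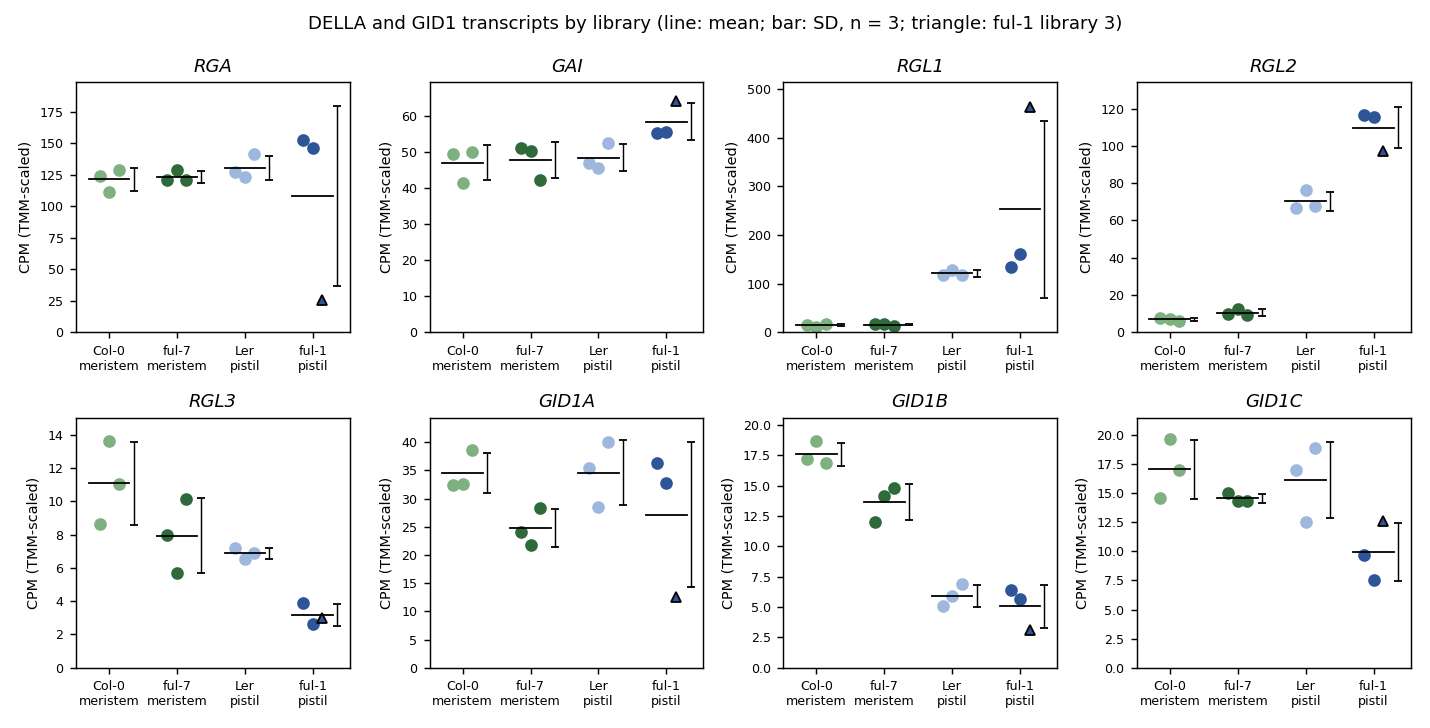
Level of each member in every library, in TMM-scaled CPM on an axis from 0, by group. Points are libraries, the line is the mean and the bar the SD (n = 3), and the triangle marks ful-1 pistil library 3. RGL1 and RGL2 sit higher in all pistil libraries than in any meristem library, GID1B lower, and the triangle lies far from its group for RGA and RGL1.

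Between wild-type pistils and wild-type meristems, edgeR's quasi-likelihood test called 4 of the 8 members at an adjusted p under 0.05, where 60.9% of the 24009 genes tested were called (31.8% higher and 29.1% lower in pistils). A share of 4 in 8 is near that background. The log2 fold change was 3.36 ± 0.13 (SE) for RGL2 (adjusted p 3.4e-06) and 3.09 ± 0.14 for RGL1 (6.2e-06). It was -1.55 ± 0.14 for GID1B (9.8e-05) and -0.67 ± 0.18 for RGL3 (0.014). For the other 4 it lay between -0.06 ± 0.18 (GID1C, adjusted p 0.779) and 0.12 ± 0.10 (RGA, 0.351). RGL3 missed the threshold when all 12 libraries shared 1 fit, at an adjusted p of 0.052.

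Levels of different genes were compared per kilobase of exon. In Col-0 meristems RGA led at 52.3 ± 3.83 CPM per kb (SD, n = 3), above GAI at 19.4 ± 2.00 and GID1A at 18.0 ± 1.83, whose ranges overlapped. GID1C at 9.25 ± 1.37 and GID1B at 8.62 ± 0.466 overlapped in turn, as did RGL1 at 6.90 ± 1.07 and RGL3 at 4.91 ± 1.11 CPM per kb. RGL2 was lowest at 2.99 ± 0.434, and no library of it reached the range of RGL3.

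In ful-7 meristems the order began with RGA, GAI and GID1A again, with no overlap between neighbours. GID1C, RGL1 and GID1B followed within overlapping ranges, from 7.89 ± 0.209 to 6.69 ± 0.721 CPM per kb (SD, n = 3). RGL2 at 4.58 ± 0.788 and RGL3 at 3.52 ± 0.993 came last and overlapped.

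In Ler pistils RGL1 at 58.2 ± 3.27 and RGA at 56.2 ± 4.10 CPM per kb (SD, n = 3) shared the first place with overlapping ranges. RGL2 followed at 30.3 ± 2.25, clear of its neighbours, and then GAI at 19.9 ± 1.54 and GID1A at 18.1 ± 3.04, which overlapped. GID1C was at 8.75 ± 1.78, and RGL3 at 3.04 ± 0.140 and GID1B at 2.91 ± 0.447 shared the last place. RGL2 thus moved from the last to the third place of the 8 between the wild-type tissues, and RGL1 from the sixth to the first.

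In ful-1 pistils RGL1 led at 121 ± 87.3 CPM per kb (SD, n = 3), a spread set by library 3. RGL2, RGA and GAI followed with overlapping neighbours at 47.4 ± 4.77, 46.5 ± 30.7 and 24.1 ± 2.10. GID1A at 14.2 ± 6.71 and GID1C at 5.39 ± 1.37 overlapped, as did GID1B at 2.48 ± 0.857 and RGL3 at 1.41 ± 0.289 CPM per kb. Without library 3 (n = 2) RGL1 stood at 71.1 ± 8.91 and overlapped RGA at 64.3 ± 2.02, and RGL2 followed both at 50.1 ± 0.209 CPM per kb.

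Summed over the 5 genes, DELLA transcripts stood at 87.9, 80.0 and 91.4 CPM per kb in Col-0 meristems and at 88.7, 92.3 and 84.6 in ful-7 meristems. They stood at 162, 169.5 and 171 CPM per kb in Ler pistils and at 205, 214 and 303 in ful-1 pistils. All 6 pistil libraries lay above all 6 meristem libraries. The mean log2 sum was higher in pistils by 1.19, with a two-sided exact permutation p of 0.00217, the smallest that 6 libraries against 6 can give. Libraries were shuffled without regard to genotype, here and for the receptor sum, the ratio and the shares between tissues. Such a p treats wild-type and mutant libraries of a tissue as alike. Without ful-1 pistil library 3 the difference was 1.07.

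The summed receptors did not follow. They stood at 33.3, 36.8 and 37.6 CPM per kb in Col-0 meristems and 26.6, 26.1 and 29.9 in ful-7 meristems. In pistils they stood at 30.2, 24.5 and 34.5 in Ler and 27.4, 23.9 and 14.9 in ful-1. The tissues overlapped, and the difference of the mean log2 sum, -0.32 for pistils minus meristems, had an exact permutation p of 0.110.

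The ratio of receptor to DELLA transcripts within a library was 0.378, 0.460 and 0.411 in Col-0 meristems and 0.30, 0.282 and 0.353 in ful-7 meristems. It was 0.186, 0.145 and 0.202 in Ler pistils and 0.134, 0.112 and 0.0491 in ful-1 pistils. Every pistil library lay below every meristem library. The mean log2 ratio differed by -1.51 (two-sided exact permutation p 0.00217, the smallest possible) and by -1.24 without ful-1 pistil library 3. The ratio does not depend on how libraries are scaled.

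**Figure D2:**
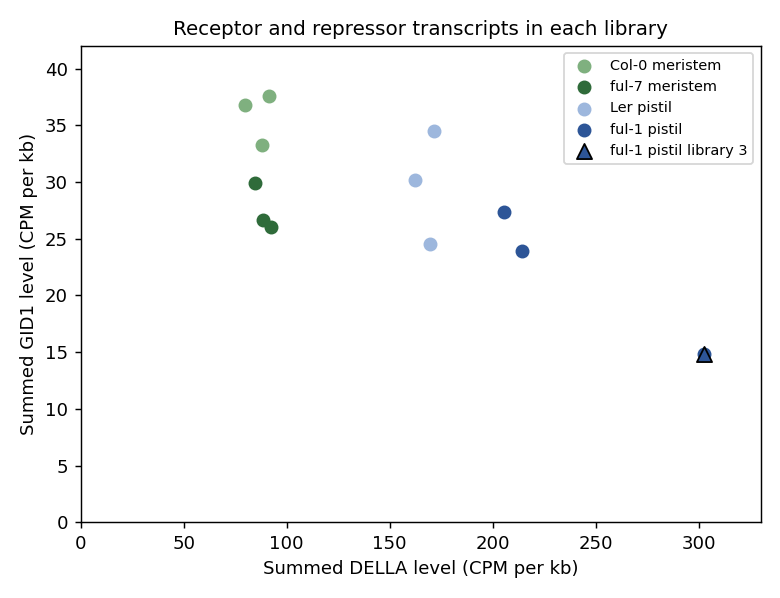
Summed GID1 level against summed DELLA level, both in TMM-scaled CPM per kb of exon, with 1 point per library coloured by group. Meristem libraries sit at DELLA sums of 80.0 to 92.3 and pistil libraries at 162 to 303, while the GID1 sums of the tissues overlap.

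The makeup of both families differed between the pistil and the meristem libraries, which also differ in ecotype. RGA supplied 58.6% to 61.5% of the DELLA transcripts per kb in the 6 meristem libraries, GAI 20.5% to 23.7%, and RGL1, RGL2 and RGL3 the rest. In Ler pistils RGA supplied 33.8%, 31.2% and 35.5%, and RGL1 34.6%, 36.6% and 33.0%. RGL2 supplied 17.7%, 19.4% and 17.1% in Ler pistils against 3.84%, 3.84% and 2.76% in Col-0 meristems. Wild-type meristem DELLA transcripts were therefore mostly RGA, while in wild-type pistils RGA and RGL1 held like shares.

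Across the 6 pistil and 6 meristem libraries, each DELLA share separated the tissues without overlap. The mean share of RGL1 was 40.9 ± 16.0% (SD, n = 6) in pistils against 8.27 ± 0.653% in meristems, and that of RGL2 19.3 ± 4.01% against 4.31 ± 1.08%. The mean share of RGA was 27.6 ± 11.9% against 60.3 ± 0.974%, that of GAI 11.03 ± 1.33% against 22.3 ± 1.19%, and that of RGL3 1.21 ± 0.681% against 4.87 ± 1.62%. The exact permutation p was 0.00217 for each, or 0.00289 adjusted over the 8 shares. Shares within a family sum to a whole, so they do not move independently.

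Among receptors, GID1B held 22.01% to 26.6% of the summed level in meristem libraries and 8.22% to 11.7% in pistil libraries, with the same permutation p of 0.00217. GID1A held 61.1 ± 9.69% (SD, n = 6) in pistils and 48.6 ± 3.53% in meristems, with overlapping libraries (exact permutation p 0.0130, adjusted 0.0148). GID1C held 28.4 ± 10.3% and 27.3 ± 2.87%, a difference within the spread between libraries (exact permutation p 0.853).

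**Figure D3:**
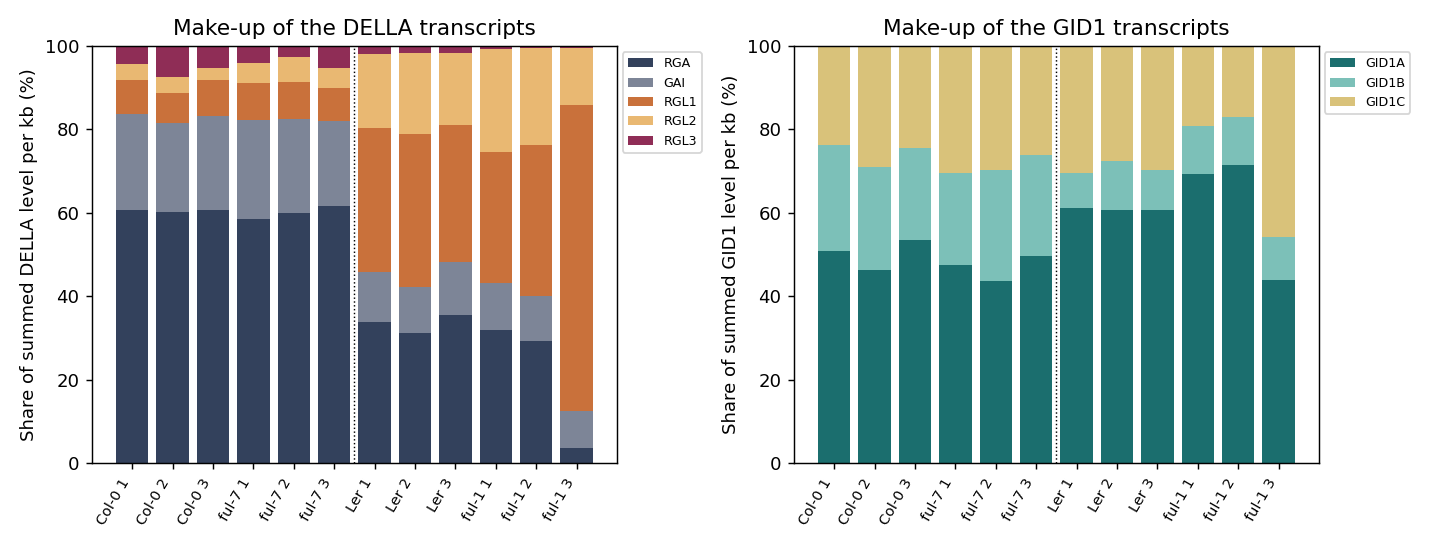
Share of each gene in the summed DELLA level (left) and the summed GID1 level (right), in percent of CPM per kb, with 1 stacked bar per library and a dotted line between meristem and pistil libraries. RGL1 and RGL2 fill much of the pistil bars, and ful-1 library 3 differs from the other pistil bars, with RGA at 3.67% and RGL1 at 73.3%.

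In pistils the loss of FUL went with more RGL2 and less RGL3 and GID1C, as far as 5 libraries showed it. RGL2 was at 66.6, 76.2 and 67.8 CPM in Ler and at 116, 116 and 97.0 CPM in ful-1. Every ful-1 library lay above every Ler library on this scale. On a TPM scale, counts per kb relative to their total over all genes, ful-1 library 3 was at 37.8 for RGL2, below the Ler libraries at 44.7 to 54.2, while libraries 1 and 2 stayed above at 88.0 and 86.8.

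RGL3 was at 7.19, 6.55 and 6.88 CPM in Ler pistils and at 3.90, 2.63 and 2.99 CPM in ful-1. All 3 ful-1 libraries were lower than all Ler libraries, on both scales. The share of all genes that lay apart between ful-1 and Ler was not counted. GID1C, with GID1A the receptor known for stem growth, was at 17.02, 12.5 and 18.9 CPM in Ler and at 9.72, 7.53 and 12.6 CPM in ful-1. Library 3 of ful-1 touched the range of Ler for GID1C, and the other ful-1 libraries lay below it. On the TPM scale GID1C was lower in every ful-1 library, at 9.22, 7.09 and 6.15 against 14.3, 11.2 and 16.6 in Ler.

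With all 6 pistil libraries edgeR called 0 of the 8 members, where 44 of 23674 genes (0.186%) were called and 2429 had an unadjusted p under 0.05. RGL3 at -1.09 ± 0.25 (log2, SE) and RGL2 at 0.67 ± 0.18 came nearest, at adjusted p 0.245 and 0.316 and unadjusted p 0.00406 and 0.00918. DESeq2 on the same libraries called these members and no other, at adjusted p 0.00345 for RGL3 and 0.00100 for RGL2, where it called 3.96% of genes (1.61% higher and 2.36% lower). Without ful-1 library 3, edgeR called 3 of the 8 members, where 13.4% of 24068 genes were called (5.12% higher and 8.26% lower). RGL2 rose by 0.68 ± 0.09 (adjusted p 0.0081), RGL3 fell by 1.11 ± 0.19 (0.0189) and GID1C fell by 0.94 ± 0.21 (0.0365).

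RGA and RGL1 were the members on which ful-1 library 3 weighed most. RGA was at 127, 122.9 and 141 CPM in Ler and at 153, 146 and 25.8 CPM in ful-1. RGL1 was at 117, 129 and 118 CPM in Ler and at 135, 161 and 462 CPM in ful-1. Library 3 was thus far below all other libraries for RGA and far above them for RGL1. The log2 fold change of RGA was -0.29 ± 0.57 with it (edgeR adjusted p 0.832) and 0.15 ± 0.09 without it (0.296). That of RGL1 was 1.16 ± 0.56 with it (0.499) and 0.25 ± 0.11 without it (0.190).

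GAI was at 55.4, 55.8 and 64.4 CPM in ful-1 against 47.2, 45.6 and 52.8 CPM in Ler, above every Ler library. On the TPM scale, library 3 was instead below them, at 23.9 against 30.1 to 35.1. Its log2 fold change was 0.31 ± 0.21 over 6 libraries (edgeR adjusted p 0.560) and 0.16 ± 0.09 over 5 (0.291). GID1A was at 36.3, 32.7 and 12.5 CPM in ful-1 and GID1B at 6.43, 5.65 and 3.09 CPM, with libraries 1 and 2 inside the Ler range and library 3 below it. Without library 3 their log2 fold changes were -0.04 ± 0.15 (adjusted p 0.865) and -0.02 ± 0.17 (0.960).

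The summed DELLA level was higher in every ful-1 library than in any Ler library, by 0.50 on the mean log2 scale and by 0.32 without library 3. On the TPM scale the groups overlapped, at a difference of 0.30. The receptor to DELLA ratio was lower in every ful-1 library, by -0.96 in mean log2 and by -0.53 without library 3. Each had an exact permutation p of 0.1, the smallest that 3 libraries against 3 allow, so neither could pass the threshold.

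**Figure D4:**
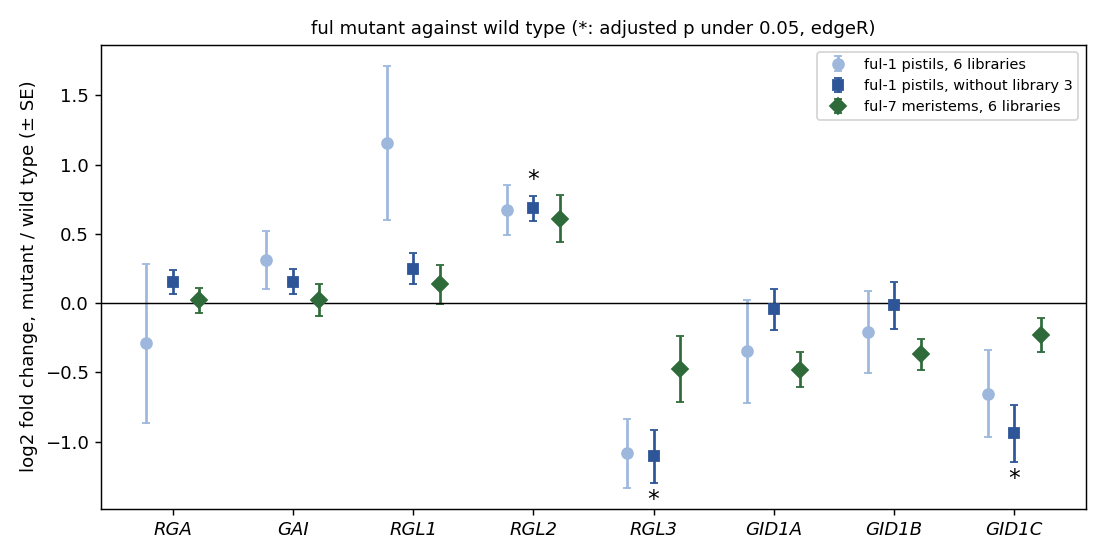
Log2 fold change of mutant over wild type for each member, with bars of 1 SE, in ful-1 pistils over 6 libraries, in ful-1 pistils without library 3, and in ful-7 meristems. Stars mark an edgeR adjusted p under 0.05, which RGL2, RGL3 and GID1C reached in pistils without library 3 and no member reached over 6 libraries of either tissue.

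In meristems edgeR called 0 of the 8 members between ful-7 and Col-0, where 66 of 22605 genes (0.292%) were called and 3406 had an unadjusted p under 0.05. RGL2 was at 7.82, 7.12 and 5.84 CPM in Col-0 and at 10.01, 12.6 and 9.13 CPM in ful-7. GID1A was at 32.4, 32.5 and 38.5 CPM in Col-0 and at 24.1, 21.8 and 28.4 CPM in ful-7. GID1B was at 17.2, 18.7 and 16.9 CPM in Col-0 and at 12.0, 14.1 and 14.8 CPM in ful-7. For these members the groups did not overlap, with RGL2 higher and both receptors lower in ful-7. The share of all genes that lay apart between ful-7 and Col-0 was not counted, so this separation is a description only.

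The log2 fold change was 0.61 ± 0.17 for RGL2 (edgeR adjusted p 0.222), -0.48 ± 0.12 for GID1A (0.203) and -0.37 ± 0.11 for GID1B (0.245). DESeq2, which called 3.59% of genes here (2.16% higher and 1.44% lower), called RGL2 at an adjusted p of 0.0445 and GID1A at 0.0354, and no other member. The remaining members overlapped between the genotypes. RGA at 0.02 ± 0.09 and GAI at 0.02 ± 0.11 had the values nearest 0, and RGL3 at -0.48 ± 0.24 and GID1C at -0.23 ± 0.12 the values furthest from it.

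RGL3 was at 7.99, 5.67 and 10.2 CPM in ful-7 and GID1C at 15.0, 14.3 and 14.4 CPM, against 8.61, 13.6 and 11.01 CPM for RGL3 and 14.6, 19.6 and 16.97 CPM for GID1C in Col-0. For each gene 2 of the 3 ful-7 libraries lay below the lowest Col-0 library and the other was inside the Col-0 range. The summed receptor level was lower in each ful-7 library than in any Col-0 library, by -0.38 in mean log2, and the receptor to DELLA ratio by -0.42. Both had an exact permutation p of 0.1, the smallest that 3 against 3 allow. The DELLA sum overlapped between the genotypes, at 0.04 in mean log2 (exact permutation p 0.6).

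Whether the difference between mutant and wild type was unequal in pistils and meristems was tested as a contrast over all 12 libraries. It called 0 of the 8 members, where 0.751% of 25154 genes were called, 3074 had an unadjusted p under 0.05, and DESeq2, which called 5.01% of genes, also called 0 members. Without ful-1 pistil library 3 it again called 0, where 10.2% of 25577 genes were called. The member nearest the threshold was GID1C, at -0.72 ± 0.24 (log2, SE; edgeR adjusted p 0.0915). The effect on RGL2 was 0.68 in pistils over 5 libraries and 0.61 in meristems, and their difference was 0.07 ± 0.19 (adjusted p 0.877).

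Genes whose level followed a member most closely were ranked by Pearson's r of log2(CPM + 1) over the 12 libraries, among the 16807 genes averaging 5 CPM or more. For RGL2 the closest was SHP2, a MADS-domain gene of the valve margin, at r = 0.999, followed by AT2G42835, which lies across SHP2 on the opposite strand, so their reads may not have been told apart, and by BCA4 at 0.996. SHP2 was at 0.685 to 1.90 CPM in Col-0 meristems, 2.35 to 3.20 in ful-7, 60.5 to 76.0 in Ler pistils and 101 to 137 in ful-1 pistils. For RGL1 they were AT3G14560 at 0.996, PME44 at 0.995 and SADHU5-2 at 0.995. The 12 libraries share the step between tissues, across which RGL1, RGL2, RGL3 and GID1B did not overlap between the wild types, and all such values are descriptions.

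For RGA the closest genes were AT3G03140, ECA3 and UBP16 at 0.996 to 0.997, values that were between 0.896 and 0.933 without ful-1 pistil library 3. The closest to RGL3 was AT3G23760 at 0.971, to GID1A AT1G52870 at 0.985 and to GID1B AT1G61600 at 0.990. GAI and GID1C had no gene nearer than 0.923 (AT1G73930) and 0.922 (AT3G20230). Within the families, RGL1 and RGL2 gave r = 0.957 over 12 libraries and 0.986 over 11, and RGL1 and GID1B -0.979 and -0.971. RGA and GAI gave -0.51 over 12 libraries and 0.85 over 11, so the sign of their relation rested on ful-1 pistil library 3.

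The rest of the pathway was read from lists of known genes. Between the wild types, most called genes among those that modify or bind DELLA proteins were lower in pistils. Over all genes tested, 60.9% were called, 31.8% higher and 29.1% lower in pistils. Of 10 genes of the receptor complex and of DELLA modification, 5 fell, 0 rose and 5 did not pass, with a median log2 fold change of -0.39 against 0.01 over all genes tested. SNE, an F-box relative of SLY1, was at -4.39 ± 0.34 (log2, SE; edgeR adjusted p 4.7e-05), BRG2, a RING protein that binds DELLA proteins, at -1.93 ± 0.19 (0.000148), and SLY1 at -0.81 ± 0.10 (0.000391). Of 33 transcription factors listed as partners or close targets of DELLA proteins, 16 fell, 5 rose and 12 did not pass (median -0.38). This list is called DELLA-binding factors below, although it also holds close targets, such as the GATA genes CGA1 and GNC. IDD10, a zinc finger factor, was at -4.24 ± 0.20, GRF4, a growth-regulating factor, at -2.56 ± 0.15, and IDD4, another zinc finger factor, at 2.69 ± 0.12.

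Genes of gibberellin metabolism moved in both directions between the wild types. Of 10 synthesis genes tested, 6 rose and 4 fell (median 0.92), with GA20OX2, a gibberellin 20-oxidase, at 4.68 ± 0.24 (log2, SE; edgeR adjusted p 9.7e-06) and KAO2, an ent-kaurenoic acid oxidase, at -0.65 ± 0.09. Of 11 inactivation genes tested, 4 rose, 4 fell and 3 did not pass (median 0.06). GA2OX1, a gibberellin 2-oxidase, was at -2.94 ± 0.13 and the cytochrome P450 gene ELA2 at -6.29 ± 0.38. GA20OX5, another 20-oxidase gene, and GAMT1, a gibberellin methyltransferase gene, had 1 count each in the 3 Col-0 meristem libraries together and 100 and 92 counts in the Ler pistils. Their ratios of counts per total count were 162 (95% exact counting interval 28.4 to 6461) and 149 (26.1 to 5949). These intervals treat the summed counts of a group as 1 sample and leave out the spread between libraries.

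Of 9 genes known as early DELLA targets in seedlings, 3 rose, 2 fell and 4 did not pass (median 0.35). They included GA20OX2 and, among those that fell, XERICO at -1.49 ± 0.17 and SCL3 at -1.08 ± 0.12. SCL3 was also counted among the DELLA-binding factors and the other GRAS genes, and GA20OX2 among the synthesis genes. Of 24 other GRAS genes tested, 13 fell, 3 rose and 8 did not pass (median -0.55), among them LAS, a gene of axillary meristems, at -3.02 ± 0.30 and SHR, a root patterning gene, at -1.29 ± 0.13. Counts in these lists are to be read against the 60.9% of all genes called. Listed genes PIF6, ALC, SPL15, MYC2, SCL11 and SCL31 overlap a gene on the opposite strand over 66.0% or more of their exonic length, and their calls are uncertain because the strand setting of the counting is not given.

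**Figure D5:**
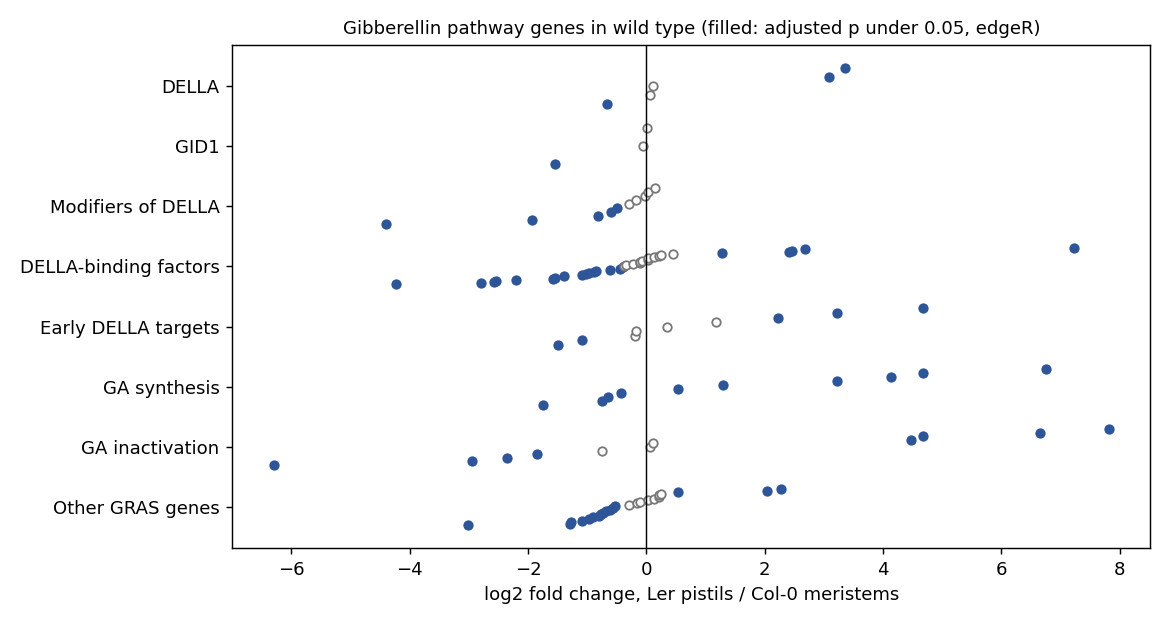
Log2 fold change of Ler pistils over Col-0 meristems for the DELLA and GID1 genes and 6 lists of related genes, 1 point per gene, filled where the edgeR adjusted p was under 0.05. RGL1 and RGL2 stand at 3.09 and 3.36, 16 of the 33 DELLA-binding factors and 13 of the 24 other GRAS genes lie lower at that threshold, and gibberellin metabolism genes lie on both sides.

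In ful-1 pistils edgeR called 1 gene of these lists over 6 libraries, where 0.186% of all genes were called. This was CGA1, a GATA factor of chloroplast development known to act downstream of DELLA proteins. It was at 7.28, 7.23 and 8.69 CPM in Ler and at 0.399, 0.526 and 0.309 CPM in ful-1, a log2 fold change of -4.17 ± 0.30 (edgeR adjusted p 0.0102). All ful-1 libraries, library 3 among them, were low. When 1 library was left out the log2 fold change of CGA1 ranged from -4.36 to -4.08. Its call was lost in 5 of these 6 fits, each of which called at most 1 gene in all. On the same libraries DESeq2, which called 3.96% of all genes, called 6 DELLA-binding factors, 3 inactivation genes, 2 modifiers and 1 early DELLA target. Limma called 1 DELLA-binding factor and 1 inactivation gene. Without library 3, edgeR called 11 of the 33 DELLA-binding factors, 4 higher and 7 lower, where 13.4% of all genes were called (5.12% higher and 8.26% lower). The related GATA gene GNC was then at -2.40 ± 0.17 (adjusted p 0.00225) and SPT, a bHLH factor of carpel margins, at 1.26 ± 0.09 (0.00227).

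Gibberellin 2-oxidases, the enzymes that inactivate the hormone, fell and rose in ful-1. GA2OX1 was at 2.87, 2.98 and 2.85 CPM in Ler and at 0.188, 0.132 and 0.412 CPM in ful-1. GA2OX8 was at 2.55, 3.40 and 2.31 CPM in Ler and at 0.117, 0.164 and 0.0 CPM in ful-1. Both were lower in every ful-1 library. Over 6 libraries their edgeR adjusted p was 0.0694 and 0.0633, and without library 3 the log2 fold changes were -4.16 ± 0.26 (adjusted p 0.00202) and -4.33 ± 0.36 (0.00255). GA2OX6 rose by 0.85 ± 0.10 without library 3 (0.00554). Of the 10 inactivation genes tested, 4 were called without library 3, 2 in each direction, against 13.4% of all genes.

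Of the 10 genes of the receptor complex and DELLA modification, 3 were called without library 3. This and the counts that follow are to be read against the 13.4% of all genes called in the same fit. The RING protein genes BRG1 at 1.25 ± 0.12 (log2, SE; edgeR adjusted p 0.00335) and BRG2 at 0.86 ± 0.08 (0.00326) rose, and BRG3 at -0.63 ± 0.12 (0.0270) fell. Of 10 synthesis genes GA20OX2 alone was called, at 0.50 ± 0.11 (0.0383), and of 9 early DELLA targets GA20OX2 and LBD40, at 1.55 ± 0.29 (0.0237). Of 24 other GRAS genes 4 rose and 1 fell, SCL6, a HAIRY MERISTEM gene, at 1.47 ± 0.11 and SHR at 0.86 ± 0.16 among the former and SCL29 at -2.06 ± 0.39. The list medians were between -0.04 and 0.26, against 0.01 over all genes tested.

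In ful-7 meristems edgeR called 0 genes in each of the 6 lists, of 10, 32, 9, 9, 10 and 23 genes tested, where 0.292% of all genes were called. DESeq2 called 1 DELLA-binding factor and 1 early DELLA target. List medians lay between -0.22 (receptor complex and DELLA modifiers) and -0.03 (early DELLA targets), against -0.02 over all genes tested.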

How the data were processed

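Messenger RNA of the 12 samples was sequenced as read pairs from stranded libraries, per the labels' protocols. The authors deposited 1 table of raw counts per gene, made with STAR 2.7.0b, featureCounts 1.6.0 and the TAIR10 genome, per the submitters' processing notes. For trimming, the strand setting and multiply placed reads, the sources used here give nothing. Replicate numbers are missing from the column names, and libraries are numbered by their order in the table. Each library had 13191949 to 83606724 counts, and the least abundant member value rested on 29 counts (RGL3, ful-1 pistil library 3).

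In R 4.3.3, genes were kept by filterByExpr, scaled by TMM and compared with edgeR 4.0.16 (quasi-likelihood F test, robust off, Benjamini-Hochberg over all genes, threshold 0.05). The fits used the 6 libraries of a tissue, the 6 wild-type libraries, or all 12 for the contrast of both mutant effects. The SE is the log2 fold change over the square root of F. DESeq2 1.42.0 and limma 3.58.1 were alternatives. Family sums, ratios and shares of CPM per kb of exon were compared with two-sided exact permutation tests (scipy 1.17.1). No label names separate cultures or plants per sample, so the spread behind a p-value may be technical. The edgeR test was checked first on simulated data with 200 changed genes, and DESeq2 and limma were not checked in this way. That check does not show how the edgeR test behaves where a library stands apart from its group, as in mutant pistils. Annotation and sequences came from RefSeq TAIR10.1, which matched 36632 of 36917 genes, with blastn 2.17.0 and mafft 7.526 for comparing sequences. Its exon lengths may differ in detail from the annotation used for counting.

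Members and lists were chosen with earlier results of these data known. Besides the members and FUL, up to 3 called genes per list and comparison with the lowest p, called with or without ful-1 pistil library 3, and the 3 genes most like each member are named.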

Additional observations from a re-analysis of the deposited data

Results flagged for a closer look

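The effect of FUL loss differed between pistils and meristems for 0 of the 8 members (edgeR adjusted p under 0.05). Among genes of the pathway lists, 4 passed over all 12 libraries and 18 without ful-1 pistil library 3, and FUL itself passed without it. These counts are to be read against all genes tested. Of those, 0.751% of 25154 passed over all 12 libraries and 10.2% of 25577 without ful-1 pistil library 3. Values are log2 effects in pistils minus meristems. With all 12 libraries the differences were -5.91 for CGA1, -3.67 for GA2OX1, -6.38 for GA2OX8 and -1.74 for SPL15, and without that library they were -5.84, -4.02, -6.14 and -1.68. SPL15, which overlaps a gene on the opposite strand, was named after its value was seen. The calls of GA2OX8 and of SPL15 were each lost in 8 of the 12 fits that left out 1 library. Other list genes passed without ful-1 pistil library 3 but not over all 12 libraries in edgeR. Those named by rule were GNC at -2.30, SPT at 1.53, BRG1 at 0.85, BRG2 at 1.17, SLY1 at 0.53, SCL6 at 2.02, SHR at 0.79 and LAS at 1.99. LAS passed in 2 of the 12 fits that left out 1 library. DESeq2 over all 12 libraries called 5 DELLA-binding factors, 3 modifiers, 2 inactivation genes and 1 other GRAS gene, where it called 5.01% of all genes. FUL stood at 2.06. CGA1 and GA2OX8 were at most at 0.183 and 0.635 CPM in the meristem libraries. With 3 libraries a group, single libraries were not tested for standing apart.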

How the results depend on the processing

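Among alternative values for the 8 members' log2 fold changes, 440 kept their direction and their side of the threshold, 7 passed it where the main value did not, 1 no longer passed and 24 changed sign. Between wild types 4 members were called under each alternative run other than the fit of all 12 libraries, which called 3. In pistils DESeq2 called 927 genes, 2 of them members, and the fit of all 12 libraries 647 genes. Leaving out 1 library gave 0 to 3221 genes and 0 to 3 members, with 3221 and 3 without ful-1 library 3 and at most 1 gene and 0 members otherwise. In meristems DESeq2 called 812 genes and 2 members, no filter 153 genes and the fit of all 12 libraries 26. A fit of all but ful-1 pistil library 3, chosen after seeing the data, called 166, and leaving out 1 library gave 10 to 93. For the difference between tissues DESeq2 called 1236 genes, and leaving out 1 library gave 57 to 2599.

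Log2 fold changes that changed sign when 1 library was left out ranged, in pistils, from -0.596 to 0.153 for RGA and from -0.0663 to 0.505 for GA20OX2. In meristems they ranged from -0.0369 to 0.0657 for RGA and from -0.0612 to 0.105 for GAI. For the difference between tissues they ranged from -0.623 to 0.125 for RGA, -0.0701 to 0.173 for RGL2, -0.128 to 0.426 for GID1A and -0.0434 to 0.344 for GID1B. Between wild types they ranged from -0.0379 to 0.109 for GAI, -0.0997 to 0.144 for GID1A, -0.194 to 0.0924 for GID1C and -0.343 to 0.033 for FUL. With all libraries 0 of these passed the threshold, and GA20OX2 passed in pistils only without ful-1 library 3.

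The summed GID1 level in pistils minus meristems ranged from -0.42 to -0.17, and only without Ler library 3 did it pass (exact permutation p 0.0390). The share of GID1C in that comparison ranged from -2.41 to 3.36 percentage points. Between ful-1 and Ler, shares ranged from -0.86 to 20.0 points for RGL1, -4.21 to 9.52 for GID1A and -11.2 to 3.27 for GID1C. Between ful-7 and Col-0, the DELLA sum ranged from -0.0191 to 0.0774 in mean log2 and was -0.0306 on the TPM scale, and shares ranged from -1.17 to 0.28 points for RGA, -0.90 to 0.72 for GAI and -0.89 to 1.36 for GID1B. The cause of these moves was not tested. No paired analysis was possible because the columns carry no replicate numbers. RGL3 and GID1B rested on 29 and 30 counts in ful-1 pistil library 3, and every other member value on at least 80.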
